A study of Mus musculus with 14 samples.

Results

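The genes Ankrd37, Car9, Ddit4, Higd1a, Mxi1, Ndrg1 and Kdm3a are targets of the hypoxia response whose products act outside glycolysis. They were chosen by symbol from the 31274 gene symbols of an RNA sequencing table of mouse uterus. All 7 were present, and all 7 were among the 14278 genes that had at least 1 FPKM in at least 3 libraries and were tested. FPKM divides the fragments of a gene by transcript length and by the library's total, so levels can be compared between genes. The uteri came from intact, untreated FVB/N mice aged 2 months, and each whole uterus was taken at estrus or at diestrus. The libraries fall into 4 groups, labelled HIF2A cKO estrus (n = 3), WT estrus (n = 3), HIF2A cKO diestrus (n = 4) and WT diestrus (n = 4), 14 in all. HIF2A cKO stands for a conditional knockout of HIF2A. The sources used here do not give the Cre driver, the cells in which it acts or the deleted exons. Nor do the labels say that replicates came from different mice, so the spread behind each p-value may be technical.

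Hypoxia-inducible factors pair an oxygen-labile alpha subunit, HIF1A or HIF2A (encoded by Epas1), with the stable partner ARNT. When oxygen is ample, prolyl hydroxylases mark the alpha subunit for destruction by the VHL ubiquitin ligase. When oxygen is low, the pair binds hypoxia response elements with a short core sequence and raises transcription of its target genes. In the uterus the estrogen peak before estrus brings edema, blood flow and epithelial growth, while progesterone dominates diestrus. Several of the 7 genes also answer to steroid hormones or to other stresses in other settings. Car9 encodes carbonic anhydrase IX, a membrane enzyme that turns carbon dioxide into bicarbonate and protons outside the cell. Higd1a encodes a small protein of the inner mitochondrial membrane that associates with the respiratory chain. Ddit4, also called REDD1, restrains the growth kinase mTORC1. Mxi1 is a repressor that pairs with MAX and competes with MYC, and Kdm3a removes methyl groups from lysine 9 of histone H3. Ndrg1 encodes a cytosolic protein induced by stress and differentiation, and Ankrd37 encodes a small ankyrin-repeat protein known as a HIF1 target in human cells.

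Of the 7 genes, 6 had at least 1 promoter window in the RefSeq table of build GRCm38.p6, with 10 windows in all, each 300 bases long from 250 bases before to 50 bases after an annotated start. The windows of 4 genes are printed because the results turn on them. On the log2(FPKM + 1) scale, Ankrd37 had the largest cycle change of the 7 genes and Car9 the largest genotype difference at estrus. Mxi1 had the only called genotype difference at diestrus, and Higd1a the only cycle change in the opposite direction. Each is read 5′ to 3′ on the strand of its gene. Capitals mark the response element cores ACGTG and GCGTG, or their reverse complements CACGT and CACGC where the core lies on the opposite strand. The Ankrd37 window is chr8:45999801-46000100 on the minus strand, and the Car9 window is chr4:43506776-43507075 on the plus strand. The Higd1a window is chr9:121857747-121858046 on the minus strand, and the Mxi1 window, the second of 3, is chr19:53329163-53329462 on the plus strand. That Mxi1 window lies at a later annotated start within the gene. The first Mxi1 window, chr19:53310256-53310555, spans the start of the gene and held 0 matches of either core.
Ankrd37: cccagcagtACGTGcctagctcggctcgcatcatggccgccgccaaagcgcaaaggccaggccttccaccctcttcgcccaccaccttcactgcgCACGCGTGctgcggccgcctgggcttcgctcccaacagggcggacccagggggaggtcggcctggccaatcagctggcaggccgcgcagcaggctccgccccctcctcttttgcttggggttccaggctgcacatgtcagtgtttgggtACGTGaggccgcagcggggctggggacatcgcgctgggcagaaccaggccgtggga
Car9: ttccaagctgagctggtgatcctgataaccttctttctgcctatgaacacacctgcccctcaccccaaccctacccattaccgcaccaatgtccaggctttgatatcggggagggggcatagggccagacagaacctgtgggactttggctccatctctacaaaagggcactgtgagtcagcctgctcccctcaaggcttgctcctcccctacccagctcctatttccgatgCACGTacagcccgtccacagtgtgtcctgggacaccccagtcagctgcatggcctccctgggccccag
Higd1a: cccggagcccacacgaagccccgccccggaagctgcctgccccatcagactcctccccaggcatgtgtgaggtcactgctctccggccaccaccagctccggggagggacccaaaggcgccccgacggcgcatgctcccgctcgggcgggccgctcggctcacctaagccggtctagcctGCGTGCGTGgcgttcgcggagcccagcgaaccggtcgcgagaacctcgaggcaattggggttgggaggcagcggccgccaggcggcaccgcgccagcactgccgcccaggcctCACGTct
Mxi1: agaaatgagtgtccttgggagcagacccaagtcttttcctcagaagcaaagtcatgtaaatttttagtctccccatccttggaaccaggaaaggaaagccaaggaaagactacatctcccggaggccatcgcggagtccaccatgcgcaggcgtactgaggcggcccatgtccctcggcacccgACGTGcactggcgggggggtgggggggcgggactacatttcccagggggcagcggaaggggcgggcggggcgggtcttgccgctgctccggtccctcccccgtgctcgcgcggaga

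The first base of a core, read on the printed strand, stood 241 and 6 bases before the start for ACGTG in Ankrd37. GCGTG stood 152 bases before the Ankrd37 start, and it overlapped a GCGTG of the opposite strand at 155 bases before. Car9 held a single ACGTG, on the opposite strand, 18 bases before its start. Higd1a held GCGTG at 70 and at 66 bases before the start, which overlap by 1 base, and ACGTG on the opposite strand at 43 bases after it. The second Mxi1 window held ACGTG at 66 bases before its start. Among the windows not printed, Ddit4 held ACGTG and GCGTG at 187 and 115 bases before, Kdm3a held GCGTG at 27 bases before in 1 of 3 windows, and the other Mxi1 window with a match held ACGTG at 25 bases before. Thus all 6 genes, in 7 of 10 windows, held ACGTG or GCGTG on either strand. Of 32851 mouse promoter windows of the same length, 19.6% held ACGTG, 32.4% held GCGTG and 43.8% held either. These shares count windows and cannot be set against the count of genes, since a gene with several windows has more chances of a match. Nor are the 10 windows all separate: the Mxi1 windows with a match overlap, as do Kdm3a windows 1 and 2. The E-box CACGTG, which contains ACGTG and is bound by MAX partners, was in 0 of the 10 windows and in 7.15% of all windows. A match describes letters in a window and does not show binding.

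**Figure D1:**
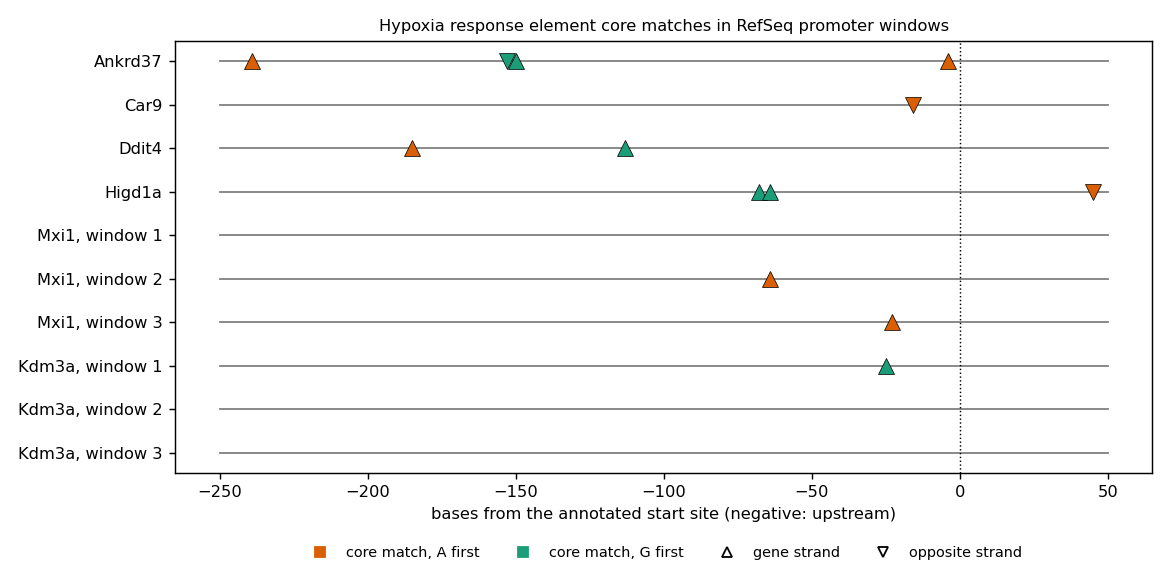
Positions of the cores ACGTG (orange) and GCGTG (green) in the 10 promoter windows of 6 genes, against distance in bases from the annotated start. Upward triangles are matches on the strand of the gene and downward triangles matches on the opposite strand; 7 of the 10 windows hold at least 1 match.

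Library totals lay between 437879 and 497688 FPKM. The number of reads was unknown, and the steps of the lowest values placed 12 of the 14 libraries within a 1.89-fold range of depth. The ribosomal RNA gene Rn45s stood at 1890 FPKM in HIF2A cKO diestrus replicate 4, against 222.7 to 236.8 FPKM in the rest of its group. It stood at 456.5 to 577.9 FPKM in WT diestrus. At estrus it stood at 818.6 FPKM in HIF2A cKO replicate 1, against 208.2 to 279.7 FPKM in the other estrus libraries. The part of Rn45s in the results was not tested. Within groups, the mean correlation of a library with the others of its group, across genes, was lowest for HIF2A cKO diestrus replicate 3 (0.9604) and WT diestrus replicate 3 (0.964). Both had the lowest summed epithelial markers of their groups and the highest summed endothelial, stromal and red blood cell markers. For epithelium the sum was 451.8 FPKM in HIF2A cKO diestrus replicate 3 and 369.0 FPKM in WT diestrus replicate 3, and for endothelium it was 196.7 FPKM in the HIF2A cKO library and 240.2 FPKM in the WT library. The red blood cell sum was 880.6 FPKM in HIF2A cKO diestrus replicate 3, against 475.9 to 534.4 FPKM in the other HIF2A cKO diestrus libraries, and 1037 FPKM in WT diestrus replicate 3, against 286.9 to 416.1 FPKM in the other WT diestrus libraries. The part of this in the results was not tested, and results that rest on these libraries are given with and without them. Markers of epithelium, stroma and smooth muscle were detected in every group (9 of 9, 8 of 8 and 7 of 7 markers).

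Epas1, the gene named by the knockout label, had no lower FPKM where the label read HIF2A cKO. It stood at 45.7, 39.9 and 38.0 FPKM in HIF2A cKO estrus, against 34.2, 31.2 and 33.3 FPKM in WT estrus. At diestrus it stood at 37.3, 35.1, 45.4 and 40.1 FPKM in HIF2A cKO, against 31.9, 32.7, 43.5 and 31.2 FPKM in WT. The limma difference was 0.31 log2 (SE 0.125, adjusted p = 0.605) at estrus and 0.18 log2 (SE 0.108, adjusted p = 0.227) at diestrus. A per-gene FPKM cannot show the loss of single exons, so each direction below is between libraries labelled HIF2A cKO and WT.

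All 7 genes changed between estrus and diestrus in both genotypes. Ankrd37, Car9, Ddit4, Mxi1, Ndrg1 and Kdm3a were higher at estrus, and Higd1a was lower. In limma 6 of 7 passed as higher and 1 of 7 as lower at an adjusted p under 0.05 (Benjamini-Hochberg over all genes tested), in HIF2A cKO and in WT alike. Of all genes tested, 25.5% passed as higher and 36.5% as lower in HIF2A cKO (62.0% in all), and 23.0% and 34.1% in WT (57.2% in all). Values at estrus and diestrus did not overlap for 6 of 7 genes in HIF2A cKO and 7 of 7 in WT, against 63.1% and 61.1% of all genes. The median log2 difference of the 7 genes was 1.33 in HIF2A cKO and 0.90 in WT, beside -0.08 and -0.09 over all genes. In RNA from whole uterus, fewer cells of a type and less RNA per cell cannot be told apart. Epithelial markers moved with this comparison: 6 of 9 were called higher at estrus in HIF2A cKO and 9 of 9 in WT. Their summed level was 1326 to 1478 FPKM in HIF2A cKO estrus, 1042 to 1268 in WT estrus, 451.8 to 1036 in HIF2A cKO diestrus and 369.0 to 630.1 in WT diestrus. Macrophage markers were also higher at estrus, 5 of 6 called in each genotype, with sums of 401.0 to 525.0 FPKM in HIF2A cKO estrus, 374.4 to 433.1 in WT estrus, 170.2 to 230.3 in HIF2A cKO diestrus and 214.7 to 264.7 in WT diestrus. Stromal markers moved mostly the other way: 5 of 8 were called lower and 2 higher at estrus in HIF2A cKO, and 6 lower and 1 higher in WT. Their median log2 differences were -0.72 and -0.89. Their sums were 2023 to 2068 FPKM in HIF2A cKO estrus, 1742 to 1914 in WT estrus, 2097 to 2633 in HIF2A cKO diestrus and 1862 to 2664 in WT diestrus. Of 6 endothelial markers, 2 were called lower in HIF2A cKO and 3 in WT, with 0 higher. Of 7 smooth muscle markers, 3 were called lower and 1 higher in each genotype. None of the markers on these 5 lists was at 0 throughout a group. Their part in the result was not tested.

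**Figure D2:**
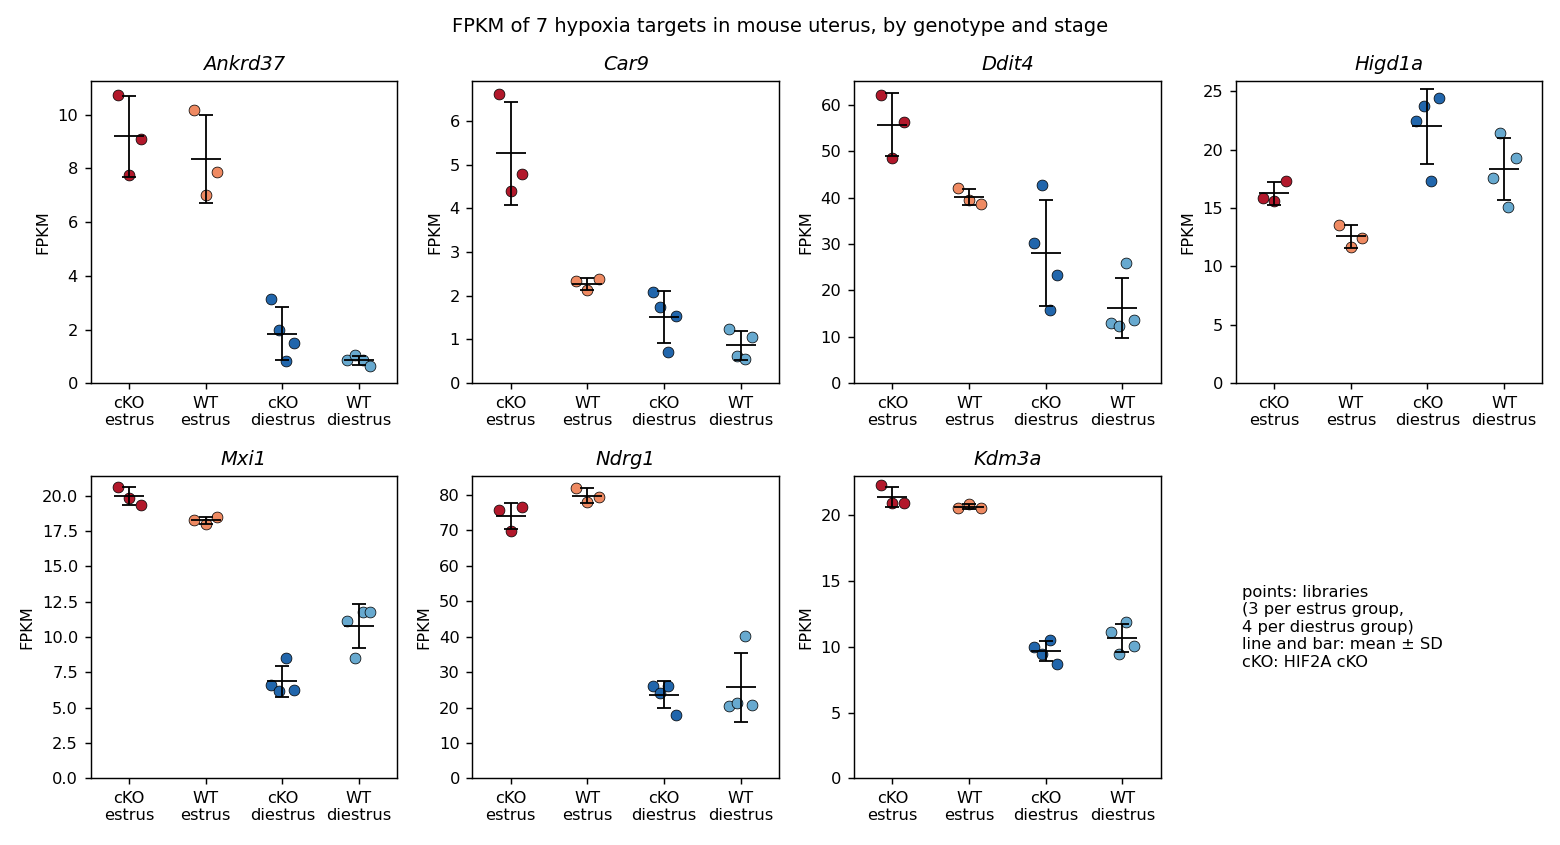
FPKM of the 7 genes in each of the 14 libraries, one panel per gene, with points for libraries, a bar at the group mean and whiskers of 1 SD. In 6 panels every estrus library lies above the diestrus libraries of its genotype, and in the Higd1a panel the estrus means lie below the diestrus means.

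Ankrd37 (chr8:45996902-46005707, minus strand, mm10) had the largest cycle change of the 7 genes in both genotypes. This held on the log2(FPKM + 1) scale and by ratio of means, but not under every alternative. It stood at 10.7, 7.74 and 9.08 FPKM in HIF2A cKO estrus libraries, against 3.13, 1.98, 0.814 and 1.48 FPKM in HIF2A cKO diestrus. In WT it stood at 10.2, 7.02 and 7.88 FPKM at estrus, against 0.846, 1.06, 0.853 and 0.647 FPKM at diestrus. Every estrus library was above every diestrus library. The group means differed 4.97-fold in HIF2A cKO and 9.83-fold in WT. On the log2(FPKM + 1) scale, which understates folds of low genes, the differences were 1.89 (SE 0.221, adjusted p = 1.26e-05) and 2.33 (SE 0.221, adjusted p = 4.37e-06). Over the alternatives run, the Ankrd37 difference fell as low as 1.056 log2 in HIF2A cKO and 1.185 log2 in WT. That of Ndrg1 was never under 1.479 and 1.512 log2, so the rank of Ankrd37 depends on the settings. The order of the means was HIF2A cKO estrus (9.19 FPKM), WT estrus (8.36), HIF2A cKO diestrus (1.85) and WT diestrus (0.851). The genotypes overlapped at each stage. Ankrd37 overlaps Ufsp2 and Lrp2bp on the opposite strand, and the sources used here do not say whether the counting used strand, so shared reads cannot be told apart.

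Car9 (chr4:43506966-43513729, plus strand) was the least abundant of the 7 genes at estrus. Its level was 6.61, 4.40 and 4.77 FPKM in HIF2A cKO estrus, against 2.08, 1.74, 0.703 and 1.54 FPKM in HIF2A cKO diestrus. In WT its level was 2.33, 2.12 and 2.38 FPKM at estrus, against 1.24, 0.616, 0.558 and 1.05 FPKM at diestrus. Estrus was higher in both genotypes without overlap, and HIF2A cKO estrus was above all the other groups. The cycle change was 1.33 log2 (SE 0.196, adjusted p = 7.60e-05) in HIF2A cKO and 0.83 log2 (SE 0.196, adjusted p = 0.00313) in WT. The means ran from HIF2A cKO estrus (5.26 FPKM) through WT estrus (2.28) and HIF2A cKO diestrus (1.52) to WT diestrus (0.867), and of these neighbours only the diestrus pair overlapped. An antisense gene, Gm12454, overlaps Car9.

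Higd1a (chr9:121848563-121858362, minus strand) moved the opposite way. HIF2A cKO libraries had 15.8, 15.6 and 17.4 FPKM at estrus, against 22.5, 23.7, 17.3 and 24.4 FPKM at diestrus. WT libraries had 13.6, 11.7 and 12.4 FPKM at estrus, against 17.6, 21.4, 15.1 and 19.3 FPKM at diestrus. The WT stages did not overlap, while in HIF2A cKO the diestrus library numbered 3 lay just under the highest estrus library. Higd1a fell by 0.40 log2 (SE 0.124, adjusted p = 0.0123) in HIF2A cKO and by 0.50 log2 (SE 0.124, adjusted p = 0.00391) in WT at estrus. HIF2A cKO diestrus (22.0 FPKM) and WT diestrus (18.4) led its order of means, followed by HIF2A cKO estrus (16.3) and WT estrus (12.6). Each neighbouring pair overlapped except HIF2A cKO estrus and WT estrus. The antisense gene Gm47112 overlaps Higd1a.

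Ddit4 (chr10:59949669-59951834, minus strand) had 62.2, 48.6 and 56.4 FPKM in HIF2A cKO estrus, against 30.2, 42.7, 15.8 and 23.4 FPKM in HIF2A cKO diestrus. In WT it had 42.1, 39.4 and 38.7 FPKM at estrus, against 13.0, 12.3, 25.9 and 13.6 FPKM at diestrus. Estrus libraries were higher without overlap in each genotype. WT diestrus replicate 3 stood well above the other 3 WT diestrus libraries. The cycle change was 1.05 log2 (SE 0.288, adjusted p = 0.00682) in HIF2A cKO and 1.32 log2 (SE 0.288, adjusted p = 0.00182) in WT. The means were 55.7 ± 6.80 FPKM (SD) in HIF2A cKO estrus, 40.1 ± 1.76 in WT estrus, 28.0 ± 11.4 in HIF2A cKO diestrus and 16.2 ± 6.51 in WT diestrus. In that order the estrus pair did not overlap and the other neighbours did.

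Mxi1 (chr19:53310518-53375810, plus strand) had 20.6, 19.9 and 19.4 FPKM in HIF2A cKO estrus, against 6.60, 6.18, 8.50 and 6.23 FPKM in HIF2A cKO diestrus. In WT it had 18.2, 18.0 and 18.5 FPKM at estrus, against 11.1, 8.49, 11.8 and 11.7 FPKM at diestrus. The stages were far apart in both genotypes, and the genotypes stood in opposite order at the 2 stages. The estrus mean was 2.90 times the diestrus mean in HIF2A cKO and 1.69 times in WT. The log2 differences were 1.42 (SE 0.113, adjusted p = 6.07e-07) and 0.72 (SE 0.113, adjusted p = 0.000185). The order was HIF2A cKO estrus, WT estrus, WT diestrus and HIF2A cKO diestrus, and only the diestrus groups overlapped, through HIF2A cKO replicate 3 and WT replicate 2. Gm10197 and AC133451.2 overlap Mxi1 on the opposite strand.

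Kdm3a (chr6:71588972-71632990, minus strand) had 22.3, 20.9 and 20.9 FPKM in HIF2A cKO estrus, against 9.98, 9.43, 10.5 and 8.72 FPKM in HIF2A cKO diestrus. In WT it had 20.6, 20.9 and 20.5 FPKM at estrus, against 11.1, 9.49, 11.9 and 10.1 FPKM at diestrus. The stages were separated in both genotypes, and the SE of its cycle change was the smallest of the 7 genes. The differences were 1.07 log2 (SE 0.0771, adjusted p = 2.71e-07) in HIF2A cKO and 0.90 log2 (SE 0.0771, adjusted p = 1.92e-06) in WT. The means were 21.4 ± 0.779 FPKM in HIF2A cKO estrus, 20.7 ± 0.178 in WT estrus, 9.66 ± 0.761 in HIF2A cKO diestrus and 10.6 ± 1.07 in WT diestrus. The diestrus groups overlapped, and the estrus groups were separated by less than 0.1 FPKM at their nearest libraries.

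Ndrg1 (chr15:66929318-66969640, minus strand) was the most abundant of the 7 genes at estrus. It had 75.9, 69.9 and 76.6 FPKM in HIF2A cKO estrus, against 26.1, 24.0, 26.2 and 18.0 FPKM in HIF2A cKO diestrus. In WT it had 82.0, 78.0 and 79.5 FPKM at estrus, against 20.5, 21.4, 40.3 and 20.7 FPKM at diestrus. The estrus libraries of both genotypes were far above every diestrus library, and WT diestrus replicate 3 stood apart from the rest of its group. The cycle changes were close, 1.63 log2 (SE 0.199, adjusted p = 1.81e-05) in HIF2A cKO and 1.66 log2 (SE 0.199, adjusted p = 2.59e-05) in WT. HIF2A cKO estrus (74.1 ± 3.65 FPKM) was below WT estrus (79.9 ± 2.01 FPKM), without overlap. The diestrus means, 23.6 ± 3.84 FPKM in HIF2A cKO and 25.7 ± 9.75 FPKM in WT, overlapped. Gm17035 and Gm2895 overlap Ndrg1 on the opposite strand.

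At diestrus the genotype comparison asks whether the label HIF2A cKO goes with another level of these targets in the progesterone-dominated uterus. Mxi1 was lower in HIF2A cKO, at 6.88 ± 1.10 FPKM (SD, n = 4), against 10.8 ± 1.55 FPKM in WT. The difference was -0.58 log2 (SE 0.105, limma adjusted p = 0.00487), and Mxi1 was lower in 4 of 4 pairs of libraries with the same replicate number. Pair counts here and below only describe the values, since the share of all genes with 4 of 4 pairs in 1 direction was not determined. Epas1, for example, was higher in HIF2A cKO in 4 of 4 pairs. Mxi1 was the 1 gene of 7 called, and 0 of 7 were called higher, where 23.9% of all genes tested were called, 13.8% as higher and 10.0% as lower. The call was lost when the diestrus libraries were fitted alone (adjusted p = 0.0530) and was kept there with the replicate number as a block (adjusted p = 0.0279). Values of the genotypes overlapped for all 7 genes (0 of 7 apart, against 15.8% of all genes). Over the 7 genes the median was 0.25 log2, beside 0.02 over all genes.

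The other 6 genes did not pass at diestrus. Ddit4 averaged 28.0 ± 11.4 FPKM in HIF2A cKO and 16.2 ± 6.51 FPKM in WT, a difference of 0.74 log2 (SE 0.267, adjusted p = 0.0614). Ankrd37 averaged 1.85 ± 0.977 FPKM in HIF2A cKO and 0.851 ± 0.167 FPKM in WT, a difference of 0.56 log2 (SE 0.205, adjusted p = 0.0619). Both were higher in HIF2A cKO in 3 of 4 same-number pairs, and the pair numbered 3 was the exception. For Car9 the means were 1.52 ± 0.587 FPKM in HIF2A cKO and 0.867 ± 0.334 FPKM in WT, 0.41 log2 apart (SE 0.181, adjusted p = 0.110). For Higd1a they were 22.0 ± 3.21 FPKM in HIF2A cKO and 18.4 ± 2.67 FPKM in WT, 0.25 log2 apart (SE 0.114, adjusted p = 0.128). Car9 and Higd1a were higher in HIF2A cKO in 4 of 4 pairs. Kdm3a was lower in HIF2A cKO in 4 of 4 pairs, by a small amount (-0.13 log2, SE 0.0714, adjusted p = 0.207). Ndrg1 was lower in 2 of 4 pairs and its difference of -0.07 log2 (SE 0.184, adjusted p = 0.791) was well within its error.

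The library numbered 3 and the pairing decide several of these values. With the replicate number as a block in the fit of all 14 libraries, Ankrd37 (adjusted p = 0.0243), Car9 (0.0164) and Higd1a (0.0255) passed as higher in HIF2A cKO, while Ddit4 did not (0.0778). That block gives libraries with the same number a common offset at estrus and diestrus alike. With the block in the diestrus libraries alone, Ankrd37 (0.0950), Car9 (0.0746), Higd1a (0.0612) and Ddit4 (0.206) did not pass. Without HIF2A cKO diestrus replicate 3, limma called Ankrd37 (0.76 log2, adjusted p = 0.00589), Car9 (0.59, 0.0102), Ddit4 (0.97, 0.00861) and Higd1a (0.35, 0.0162) as higher. Without WT diestrus replicate 3, Ddit4 passed at 0.97 log2 (adjusted p = 0.0190). With both libraries left out, Ddit4 stood at 1.21 log2 (adjusted p = 0.000752), Ankrd37 at 0.76 (0.0112), Car9 at 0.51 (0.0230) and Higd1a at 0.27 (0.0267). The 3 genes highest in HIF2A cKO by ratio, Ankrd37, Car9 and Ddit4, had their lowest HIF2A cKO diestrus value in replicate 3, as did Higd1a. That library had the lowest epithelial marker sum of its group. WT diestrus replicate 3 also had the lowest epithelial sum of its group. In that library Car9 (0.558 FPKM) and Higd1a (15.1 FPKM) were lowest of the group and Ddit4 was highest (25.9 FPKM). Ankrd37 (0.853 FPKM) lay within the 0.647 to 1.056 FPKM of the group. At diestrus 2 of 9 epithelial markers were called higher in HIF2A cKO, where 13.8% of all genes tested were. The summed level of the epithelial markers was 955.5, 1036, 451.8 and 796.1 FPKM in HIF2A cKO, against 630.1, 551.4, 369.0 and 484.7 FPKM in WT. Their part in the differences was not tested.

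**Figure D3:**
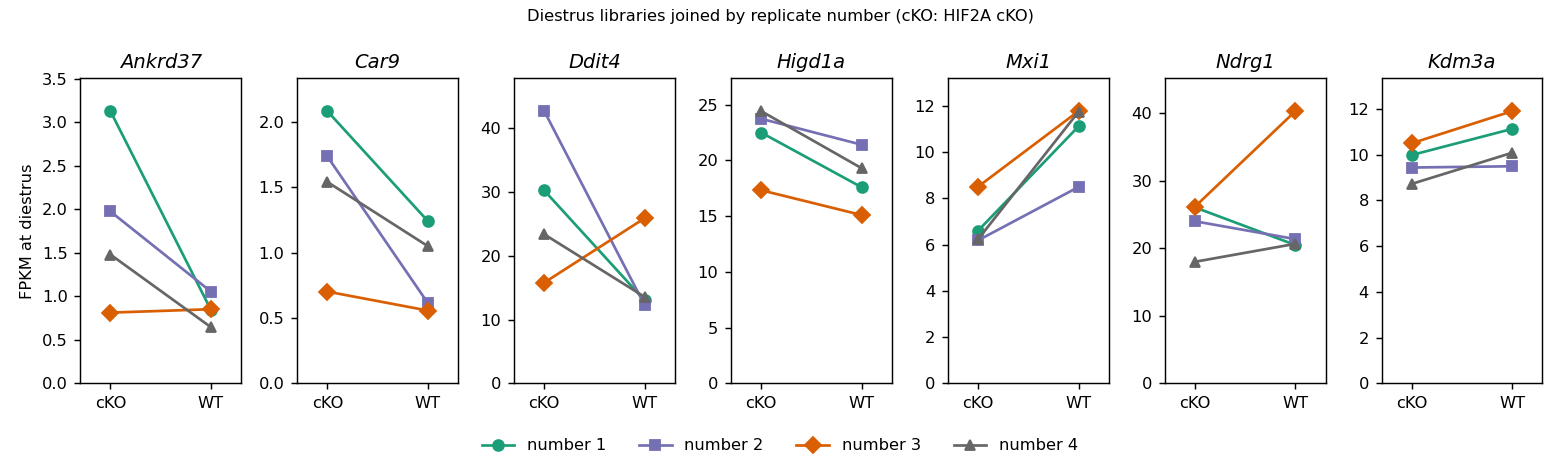
FPKM of the 7 genes at diestrus, HIF2A cKO left and WT right in each panel, with lines joining libraries that carry the same replicate number. Mxi1 and Kdm3a are lower in HIF2A cKO in 4 of 4 pairs, Car9 and Higd1a are higher in 4 of 4, and the pair numbered 3 goes the other way for Ddit4 and, slightly, for Ankrd37.

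At estrus none of the 7 genes passed between the genotypes. With limma 0 of 7 were called, 2 of 7 had an unadjusted p under 0.05, and 0.105% of all genes tested were called, 0.0700% as higher and 0.0350% as lower. Car9 showed the largest difference, with 5.26 ± 1.18 FPKM in HIF2A cKO and 2.28 ± 0.137 FPKM in WT (SD, n = 3 each). The fitted difference was 0.92 log2 (SE 0.209, adjusted p = 0.205). Its lowest HIF2A cKO library was above the highest WT library. The call depended on the fit. With the estrus libraries fitted alone the adjusted p was 0.0247, with the replicate block it was 0.0285, with a pseudocount of 5 it was 0.0480, and without HIF2A cKO diestrus replicate 3, which enters only the shared spread, it was 0.0472. It passed in 6 of 26 alternatives run, and with single libraries left out its adjusted p reached 0.904, without WT estrus replicate 2. Higd1a averaged 16.3 ± 0.960 FPKM in HIF2A cKO and 12.6 ± 0.954 FPKM in WT, 0.35 log2 apart (SE 0.132, adjusted p = 0.571). Ddit4 was 0.46 log2 higher in HIF2A cKO (SE 0.308, adjusted p = 0.829), with all 3 HIF2A cKO libraries above all 3 WT libraries.

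Values of the estrus genotypes did not overlap for 6 of 7 genes, against 26.4% of all genes, and Ankrd37 was the exception. Of those 6, Ndrg1 was lower in HIF2A cKO and the other 5 were higher. Summed markers also did not overlap between the estrus genotypes for 4 lists, all higher in HIF2A cKO. Epithelial sums were 1326 to 1478 FPKM in HIF2A cKO and 1042 to 1268 FPKM in WT, and stromal sums were 2023 to 2068 FPKM in HIF2A cKO and 1742 to 1914 FPKM in WT. Most of the stromal sum was Dcn, with a mean of 1342 FPKM in HIF2A cKO and 1142 FPKM in WT. The median difference over the 8 stromal markers was 0.0029 log2, so the stromal list as a whole was not higher. Smooth muscle sums were 4290 to 4564 FPKM in HIF2A cKO and 3664 to 4206 FPKM in WT, and mesothelial sums were 80.2 to 93.6 FPKM in HIF2A cKO and 64.3 to 65.2 FPKM in WT. No single marker of these lists was called at estrus (0 of 9, 0 of 8, 0 of 7 and 0 of 5), and their part in the differences was not tested. The differences of the remaining genes were small: Mxi1 0.12 log2 (SE 0.121, adjusted p = 0.918), Ankrd37 0.13 (SE 0.237, adjusted p = 0.969), Kdm3a 0.05 (SE 0.0825, adjusted p = 0.967) and Ndrg1 -0.11 (SE 0.213, adjusted p = 0.973). Over the 7 genes the median was 0.13 log2, beside 0.01 over all genes.

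**Figure D4:**
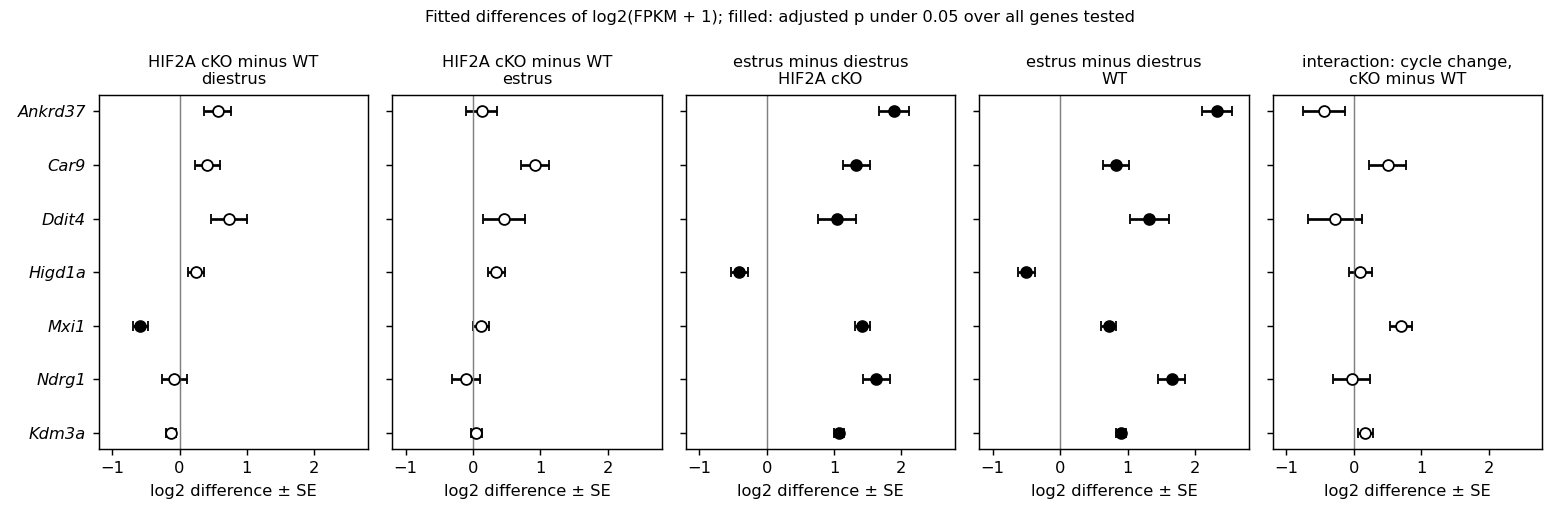
Log2 differences of the 7 genes with their limma SE, for HIF2A cKO minus WT at diestrus and at estrus, estrus minus diestrus in each genotype, and the interaction; filled points passed an adjusted p of 0.05 over all genes tested. Mxi1 at -0.58 is the only called genotype difference at diestrus, and Car9 at 0.92 is the largest at estrus without passing.

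The difference between the cycle changes of the genotypes was tested by the interaction term, in which a positive value means a larger rise at estrus in HIF2A cKO. No gene of the 7 passed in limma (0 of 7, 1 of 7 at an unadjusted p under 0.05), and 0.0350% of all genes did, 0.0140% as higher and 0.0210% as lower. Mxi1 came nearest, with a cycle change 0.70 log2 larger in HIF2A cKO (SE 0.160, adjusted p = 0.108). It passed with the replicate block (adjusted p = 0.0240), without HIF2A cKO diestrus replicate 3 (0.79 log2, 0.00980), without WT diestrus replicate 2 (0.80 log2, 0.0236) and without both diestrus libraries numbered 3 (0.75 log2, 0.0110). Car9 had a term of 0.50 log2 (SE 0.277, adjusted p = 0.355) and Ankrd37 one of -0.44 log2 (SE 0.313, adjusted p = 0.480). The terms of Ddit4 (-0.28), Kdm3a (0.17), Higd1a (0.10) and Ndrg1 (-0.03) were smaller, with adjusted p from 0.417 to 0.967. So the larger HIF2A cKO cycle changes of Mxi1 and Car9, and the larger WT changes of Ankrd37 and Ddit4, were not shown to differ between the genotypes in this fit. The comparisons within a genotype and within a stage share libraries.

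A list of 40 other hypoxia targets outside glycolysis, 39 of them tested, moved in both directions. Estrus against diestrus, 20 were higher and 11 lower in HIF2A cKO, and 21 were higher and 9 lower in WT, with medians of 0.33 and 0.34 log2 beside -0.08 and -0.09 over all genes. Over all genes tested 25.5% were called higher and 36.5% lower in HIF2A cKO, and 23.0% higher and 34.1% lower in WT. Bnip3, a mitophagy receptor, was 1.80 log2 higher at estrus in HIF2A cKO (SE 0.0830, adjusted p = 7.48e-09). It was the 1 gene of 39 called for the interaction, at 0.80 log2 (SE 0.117, adjusted p = 0.0395), and with single libraries left out that adjusted p ran from 0.00258 to 0.162, highest without HIF2A cKO estrus replicate 4. Plod2, a collagen lysyl hydroxylase, fell by 1.92 log2 there (SE 0.261, adjusted p = 4.18e-05). In WT the largest rises were those of Egln3, an oxygen-sensing prolyl hydroxylase, at 2.90 log2 (SE 0.332, adjusted p = 1.85e-05), and of the clock repressor Bhlhe40, at 1.77 log2 (SE 0.322, adjusted p = 0.000532). Between the genotypes at diestrus, 8 were higher and 4 lower in HIF2A cKO, where 23.9% of all genes were called, and at estrus 0 of 39 were called. The diestrus count of 12 was 2 in the diestrus libraries alone and 19 without both libraries numbered 3. With single libraries left out it ran from 6, without WT diestrus replicate 4 or HIF2A cKO diestrus replicate 2, to 20, without HIF2A cKO diestrus replicate 3, and it was 7 without HIF2A cKO diestrus replicate 1 and 8 without WT diestrus replicate 1. Car12, a membrane carbonic anhydrase, averaged 31.8 ± 9.70 FPKM in HIF2A cKO diestrus and 11.2 ± 6.07 FPKM in WT diestrus (1.49 log2, SE 0.291, adjusted p = 0.00626). Angptl4, an inhibitor of lipoprotein lipase, was 1.17 log2 higher there (SE 0.281, adjusted p = 0.0131). Bnip3 fell by 0.54 log2 in HIF2A cKO (SE 0.0768, adjusted p = 0.00255). In the diestrus libraries alone Car12 and Angptl4 did not pass (adjusted p = 0.0545 for Car12 and 0.0609 for Angptl4).

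**Figure D5:**
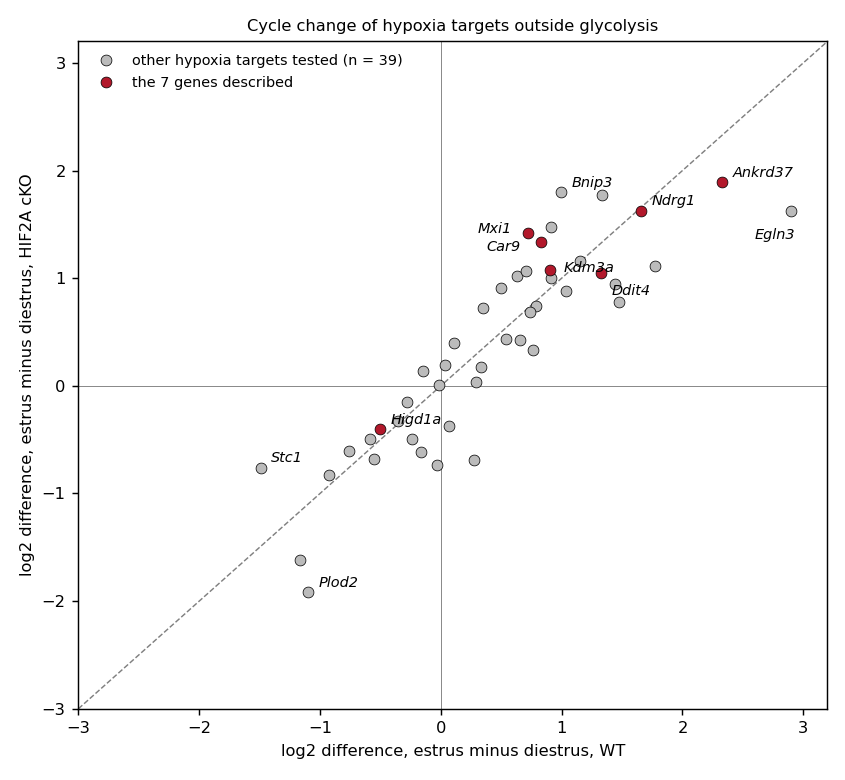
Log2 difference, estrus minus diestrus, in HIF2A cKO against that in WT for the 7 genes (red) and the 39 other hypoxia targets tested (grey), with the line of equal change dashed. Of the 7 genes, 6 lie in the upper right, Mxi1 and Car9 above the line and Ankrd37 and Ddit4 below it, and Higd1a lies in the lower left.

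The genes that govern the response followed no single direction. Of 9 tested HIF subunits, hydroxylases and regulators, 3 were higher and 2 lower at estrus in each genotype. Of all genes tested, 62.0% were called for the cycle change in HIF2A cKO and 57.2% in WT. Between the genotypes 0 of 9 were called at diestrus or at estrus, where 23.9% and 0.105% of all genes were called. Hif1a, the other oxygen-labile subunit, fell by 0.91 log2 (SE 0.150, adjusted p = 0.000187) in HIF2A cKO and by 0.55 log2 (SE 0.150, adjusted p = 0.00746) in WT at estrus. Egln3 was higher at estrus in HIF2A cKO too, by 1.63 log2 (SE 0.332, adjusted p = 0.000932). Arnt2, a partner subunit, was higher at estrus by 0.86 log2 (SE 0.270, adjusted p = 0.0143) in HIF2A cKO and by 1.20 log2 (SE 0.270, adjusted p = 0.00228) in WT.

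Relatives of the 7 genes gave mixed directions. Beside the counts of these lists, 25.5% of all genes tested were called higher and 36.5% lower at estrus in HIF2A cKO. In WT 23.0% were called higher and 34.1% lower. Between the genotypes at diestrus, 13.8% were called higher and 10.0% lower in HIF2A cKO. Of 15 other carbonic anhydrases 8 were tested, and at estrus 5 were higher and 1 lower in HIF2A cKO, and 4 higher and 0 lower in WT. Cytosolic Car2 was 1.84 log2 higher at estrus in HIF2A cKO (SE 0.489, adjusted p = 0.00558) and 2.99 log2 higher in WT (SE 0.489, adjusted p = 0.000254). Car14 was 1.40 log2 higher in HIF2A cKO (SE 0.194, adjusted p = 4.91e-05), and Car12 was 1.48 log2 higher in WT (SE 0.314, adjusted p = 0.00155). At diestrus, Car12 was higher in HIF2A cKO as given above and Car11, a family member without catalytic activity, fell by 0.54 log2 (SE 0.116, adjusted p = 0.00828).

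Within the NDRG family, Ndrg3 fell by 0.83 log2 at estrus in HIF2A cKO (SE 0.105, adjusted p = 2.30e-05) and by 0.89 log2 in WT (SE 0.105, adjusted p = 2.38e-05), opposite to Ndrg1. Ndrg2 was 0.95 log2 higher at estrus in HIF2A cKO (SE 0.144, adjusted p = 9.98e-05). In WT its 0.38 log2 (SE 0.144, adjusted p = 0.0396) was lost without the filter (adjusted p = 0.0616), in the WT libraries alone (0.0624) and when WT diestrus replicate 1 or 2 or any single estrus library other than WT replicate 2 was left out, with the highest adjusted p, 0.151, without WT estrus replicate 4. Ndrg4 was not called in either genotype. Of the HIG1 domain relatives of Higd1a, Higd1b fell by 0.52 log2 at estrus in HIF2A cKO (SE 0.131, adjusted p = 0.00370). Higd2a was 0.40 log2 higher there (SE 0.135, adjusted p = 0.0211), a call lost in the HIF2A cKO libraries alone (0.0782) and without HIF2A cKO estrus replicate 1 (0.0748). In WT 0 of 2 relatives were called.

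In the MAX network, to which Mxi1 belongs, 4 of 11 tested genes were higher and 2 lower at estrus in each genotype. Mxd3, another MAX-binding repressor, fell by 2.18 log2 in HIF2A cKO (SE 0.288, adjusted p = 3.25e-05) and by 1.84 log2 in WT (SE 0.288, adjusted p = 0.000181) at estrus. Mxd1, also a repressor, was 1.08 log2 higher in HIF2A cKO (SE 0.133, adjusted p = 1.92e-05). Mycn, an activator, was 1.76 log2 higher at estrus in WT (SE 0.326, adjusted p = 0.000602). At diestrus 1 of 11 was called higher in HIF2A cKO and 0 of 11 lower, so the lower Mxi1 had no called counterpart in this list.

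Among 8 tested demethylases of the lysine that Kdm3a acts on, 3 were higher and 0 lower at estrus in HIF2A cKO and 2 higher and 0 lower in WT. The paralog Kdm3b was 0.26 log2 higher at estrus in HIF2A cKO (SE 0.0604, adjusted p = 0.00231) and 0.26 log2 higher in WT (SE 0.0604, adjusted p = 0.00261). The paralog Jmjd1c was 0.42 log2 higher at estrus in HIF2A cKO (SE 0.0892, adjusted p = 0.00126). At diestrus Jmjd1c fell by 0.70 log2 in HIF2A cKO (SE 0.0826, adjusted p = 0.00148), 1 of 8 called lower beside 1 of 8 called higher. Among 8 tested brakes of mTORC1, the kinase complex that Ddit4 restrains, 2 were higher and 1 lower at estrus in HIF2A cKO and 2 higher and 0 lower in WT. Deptor, an inhibitor within that complex, was 1.94 log2 higher at estrus in HIF2A cKO (SE 0.250, adjusted p = 2.71e-05) and 1.19 log2 higher in WT (SE 0.250, adjusted p = 0.00143). Sesn1, a sestrin that senses amino acids, was 1.00 log2 higher at estrus in HIF2A cKO (SE 0.165, adjusted p = 0.000182). At diestrus 1 of 8 was called higher and 1 lower in HIF2A cKO.

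Genes with the most similar profile to each of the 7 were found by Pearson r of log2(FPKM + 1) over the 14 libraries, among 10779 genes. These coefficients describe libraries that share stage and depth, and no test was made. Closest to Ankrd37 were Ceacam1 (r = 0.985) and Ugt1a7c (0.984). Ceacam1, an epithelial adhesion molecule, averaged 99.5 ± 5.37 FPKM in HIF2A cKO estrus, 75.4 ± 14.8 in WT estrus, 16.7 ± 9.03 in HIF2A cKO diestrus and 7.06 ± 1.35 in WT diestrus, the same order of groups as Ankrd37. Closest to Car9 were Gpa33 (0.959) and Stc2 (0.957), and closest to Ddit4 were Dll4 (0.969), a Notch ligand, and Rps6ka1 (0.946). Higd1a was nearest to Ndufb7 (0.960) and Cox5b (0.959), both subunits of the respiratory chain. Mxi1 was nearest to Tcn2 (0.991) and Sepp1 (0.991), Ndrg1 to Cd47 (0.989) and Ccng2 (0.985), and Kdm3a to Xdh (0.994) and Pla1a (0.993). Stc2 and Ccng2 also stand on the list of other hypoxia targets.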

How the data were processed

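RNA sequencing of whole mouse uterus gave 1 deposited table of FPKM values for 31274 gene symbols in 14 libraries, grouped by the genotype and stage in the labels. The authors used TopHat2 2.0.4 and Cufflinks 2.0.2 on mm10, per the submitters' processing notes. No annotation, strand setting or scaling of the libraries is named in the sources used here. Read counts were not used here, so depth is unknown and no counting error can be given. FPKM falls for other genes when a few genes take many fragments.

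The program limma 3.58.1 (R 4.3.3) was run on log2(FPKM + 1), with all 14 libraries and the 4 group means in 1 fit, the trend option of eBayes and Benjamini-Hochberg adjustment over 14278 genes (at least 1 FPKM in at least 3 libraries) at 0.05. Left out were 11 genes listed at 0 throughout a group that averaged 50 FPKM or more in another group. The computation was checked on simulated data. Deviations of same-number diestrus libraries correlated at 0.321, 0.115, 0.622 and 0.217, highest for the libraries numbered 3. Different-number diestrus pairs ran from -0.454 to 0.262. HIF2A cKO replicate 2 correlated more with WT replicate 1 (0.262) and WT replicate 4 (0.14) than with WT replicate 2. The numbers were taken to pair the diestrus libraries, an assumption that these values do not settle. At estrus, same-number libraries correlated at 0.0805, 0.0958 and -0.0475 and were not taken to pair. The block in the fit of all 14 libraries nevertheless gives them the offset of the diestrus libraries with the same number.

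The genes, lists and tests were chosen with earlier results of these data known. Named were the 7 genes, Epas1, the 2 genes most similar to each of the 7 and, from each list, relatives of the 7 and the 2 largest called changes per comparison. Other list genes whose call was lost under several alternatives are given by count. Coordinates are from GENCODE M21 on mm10, and promoters from RefSeq on GRCm38.p6. Alternatives were other pseudocounts, filters, scalings, fits of fewer libraries, eBayes options, library weights, the replicate block and each library left out in turn. Leaving out both diestrus libraries numbered 3 and the block in diestrus libraries alone were chosen after seeing the data.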

Additional observations from a re-analysis of the deposited data

Results flagged for a closer look

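Of 14 groups of 4 diestrus libraries examined (7 genes in both genotypes), 2 held a library whose gap to its nearest neighbour exceeded Dixon's 95% critical value, and chance gives about 1 in 20. Both were WT diestrus replicate 3. Ddit4 stood at 25.9 FPKM in that library, against 12.3 to 13.6 FPKM in the other 3 WT diestrus libraries. Ndrg1 stood at 40.3 FPKM there, against 20.5 to 21.4 FPKM in the other 3. The same library had the lowest epithelial marker sum (369.0 FPKM) and the highest endothelial marker sum (240.2 FPKM) of its group, and a red blood cell marker sum of 1037 FPKM, against 286.9 to 416.1 FPKM in the other 3. The part of these in the values of Ddit4 and Ndrg1 was not tested.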

How the results depend on the processing

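Over the 7 genes, 940 values under alternatives were compared with the main ones: 894 kept their direction and their side of the threshold, 33 passed it newly, 1 no longer passed and 12 changed sign. All 7 genes were called for the cycle change in both genotypes under every alternative run, each library left out included. Between the genotypes at diestrus, 1 of the 7 was called, against 2 with a pseudocount of 0.1 and with quantile normalization, 0 with the diestrus libraries alone, 5 with library weights and without both diestrus libraries numbered 3, 4 with the replicate block, and 1 to 5 with single libraries left out. At estrus 0 were called, against 1 with a pseudocount of 5, the estrus libraries alone, the replicate block or both libraries numbered 3 left out, 2 with library weights, and 0 to 1 with single libraries left out. For the interaction 0 were called, against 4 with library weights, 1 with the block, 1 without both libraries numbered 3, and 0 to 1 with single libraries left out. The numbers did not pair the estrus libraries; the block changed no other call of the 7 genes. Ndrg1 changed sign at diestrus with library weights (0.18 log2), without both libraries numbered 3 (0.10) and over single libraries left out (-0.16 to 0.15). Its interaction term changed sign with quantile normalization (0.00201) and over single libraries left out (-0.262 to 0.0524), and that of Higd1a did so over single libraries left out (-0.00515 to 0.19). The causes were not tested. Over all genes, the calls at diestrus were 3410, against 401 with the diestrus libraries alone, 7885 with library weights, 2034 with the diestrus block and 1473 to 5013 with single libraries left out. At estrus they were 15, against 0 at a filter of 5 FPKM, 1331 with weights, 332 with the estrus libraries alone, 63 without both libraries numbered 3, 7 with a pseudocount of 0.1, 26 with a pseudocount of 5 or no filter, 23 with quantile normalization and 0 to 29 with single libraries left out. For the interaction they were 5, against 5225 with weights, 462 with the block, 1204 without both libraries numbered 3, 12 with the genes at 0 kept, 11 with no filter, 10 with quantile normalization, 8 with a pseudocount of 0.1 and 0 to 1181 with single libraries left out. Of the 7 genes Ddit4 had the largest SE in each comparison.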

Other observations

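Genes that glucocorticoids induce in many tissues, among which Ddit4 is often counted, moved in both directions. Of 11 tested, 5 were higher and 1 lower at estrus in HIF2A cKO, with a median of 0.36 log2 beside -0.08 over all genes. In WT 2 were higher and 3 lower, with a median of -0.08 beside -0.09 over all genes. Of all genes tested, 25.5% were called higher and 36.5% lower at estrus in HIF2A cKO, and 23.0% and 34.1% in WT. Klf9, a transcription factor, was 1.14 log2 higher at estrus in HIF2A cKO (SE 0.201, limma adjusted p = 0.000311). Fkbp5, a chaperone of the glucocorticoid receptor, fell by 1.17 log2 at estrus in WT (SE 0.144, adjusted p = 3.14e-05). At diestrus 0 of 11 were called higher and 3 lower in HIF2A cKO, where 13.8% of all genes were called higher and 10.0% lower. Tsc22d3 fell by 0.77 log2 there (SE 0.172, adjusted p = 0.00935), but not when only diestrus libraries were fitted (adjusted p = 0.0648).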
